A study of Mus musculus with 2 samples.

Results

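The genes Mir103-1, Mir103-2, Mir107 and Mir33 are microRNA (miRNA) genes that lie inside introns of metabolic genes, and they were taken by name from the annotation. They are 4 of the 2202 miRNA genes counted in the left cerebral cortex of B6CASTF1/J mice, the F1 hybrid of the strains C57BL/6J and CAST/EiJ. The tissue came from 2 males aged 25 days, which form a single group of biological replicates with 1 small-RNA library each. The labels name no treatment and no altered allele, and whole tissue was used, so all cell types of the cortex contribute. No conditions were compared: what can be given is the level of each gene, the spread between the replicates, and the sequence that limits what each count means.

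A miRNA is cut from a hairpin precursor, which yields a 5p and a 3p arm, and the loaded arm pairs with target mRNAs mainly through its seed, bases 2 to 8. The 3 mouse genes of miR-103 and miR-107, here called the family, lie in introns of pantothenate kinase genes, whose enzymes carry out the rate-limiting step of coenzyme A synthesis. In mice the family is known to lower insulin sensitivity and to target the miRNA-processing enzyme Dicer. Mir33 lies in an intron of Srebf2, which encodes the transcription factor that switches on cholesterol synthesis and uptake. Its product represses the cholesterol exporter Abca1, so the host gene and its intronic miRNA both favour retention of sterol. In brain, cholesterol is made locally, and Abca1 and coenzyme A metabolism are both active there.

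The products of the Pank introns and of Srebf2 have different seeds. RefSeq mature sequences (GRCm38.p6) are shown with the seed in capitals to make this visible.
mmu-miR-103-3p: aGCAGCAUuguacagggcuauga
mmu-miR-107-3p: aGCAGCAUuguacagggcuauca
mmu-miR-33-5p: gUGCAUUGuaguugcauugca
mmu-miR-33-3p: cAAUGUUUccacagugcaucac
A search of all mouse mature miRNAs in the RefSeq table found the seed of miR-103-3p and miR-107-3p in the arms of these 3 genes alone, and each of the miR-33 seeds in 1 arm, its own.

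Mir103-1 and Mir103-2 encode the same 23-base 3p arm, and the arm of Mir107 differs from it in 1 base. The arms are repeated here with the differing bases in capitals, because these bases decide which reads can be given to a single gene.
mmu-miR-103-3p: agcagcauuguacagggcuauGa
mmu-miR-107-3p: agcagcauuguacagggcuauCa
mmu-miR-103-1-5p: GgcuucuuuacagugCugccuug
mmu-miR-103-2-5p: AgcuucuuuacagugCugccuug
mmu-miR-107-5p: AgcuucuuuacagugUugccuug
With positions counted from 1 at the 5′ end of the arm, the difference from miR-103-3p to miR-107-3p is G22C. Among the 5p arms it is G1A from miR-103-1-5p to miR-103-2-5p and C16U from miR-103-2-5p to miR-107-5p. A read that starts at the first base of miR-107-3p therefore matches 3 hairpins up to a length of 21 bases, and only that of Mir107 from 22 bases on. A read of miR-103-3p matches at least 2 hairpins at every length from 15 to 23 bases. The 5p arm of Mir103-1 is found in 1 hairpin from 15 bases on, and those of Mir103-2 and Mir107 from 16 bases on. Both arms of Mir33 occur in 1 hairpin at every length tried.

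**Figure D1:**
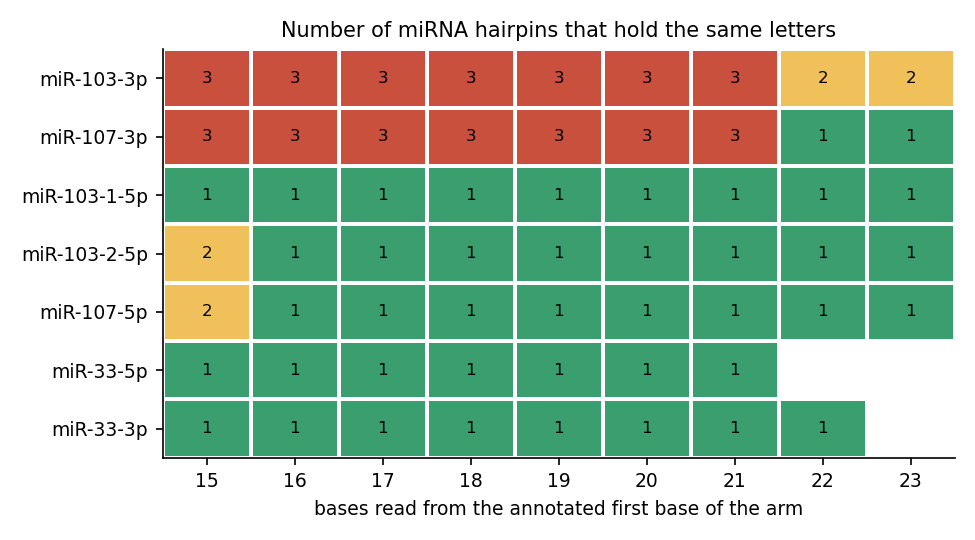
Each row is an annotated arm, each column the number of bases read from its first base, and each cell the number of mouse miRNA hairpins in the RefSeq table that hold exactly those letters. The miR-103-3p row never reaches 1, the miR-107-3p row reaches 1 at 22 bases, and the miR-33 rows stand at 1 throughout.

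The whole hairpins are given with both annotated arms in capitals, to show how far the likeness of the 3 family genes extends beyond the arms.
Mir103-1: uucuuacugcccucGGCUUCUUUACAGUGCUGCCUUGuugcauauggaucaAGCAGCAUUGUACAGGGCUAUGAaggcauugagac
Mir103-2: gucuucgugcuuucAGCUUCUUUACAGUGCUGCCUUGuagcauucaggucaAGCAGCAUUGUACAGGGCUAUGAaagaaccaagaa
Mir107: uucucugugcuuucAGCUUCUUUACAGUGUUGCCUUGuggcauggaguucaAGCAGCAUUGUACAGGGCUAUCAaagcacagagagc
Mir33: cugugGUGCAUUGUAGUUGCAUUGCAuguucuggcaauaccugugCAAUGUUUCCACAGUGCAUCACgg
In global alignments, identity was 80.2% between Mir103-1 and Mir103-2, 80.5% between Mir103-1 and Mir107, and 83.9% between Mir103-2 and Mir107. The longest stretch that Mir103-1 and Mir103-2 have in common is 27 bases, made up of the 3p arm, 3 bases before it and 1 base after it. A read of the 3p arm is thus tied to one of these copies only if it reaches past that stretch. No other mouse hairpin held more than 13 consecutive bases of Mir103-1, 12 of Mir103-2 or 11 of Mir107, so the overlap in sequence is within the family. Mir33 had at most 11 consecutive bases in common with any other hairpin.

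All 4 hairpins sit on the strand of their host gene, and no exon of any annotated host transcript overlaps them. Mir103-1 (ENSMUSG00000065553.1) lies on mm10 chromosome 11 at 35782396 to 35782481, in Pank3. Mir103-2 (ENSMUSG00000065563.1) lies on chromosome 2 at 131288052 to 131288137, in Pank2. Mir107 (ENSMUSG00000065594.1) lies on the minus strand of chromosome 19 at 34820687 to 34820773, in Pank1. The 3 family genes occupy the same place in their hosts, the intron between exons 5 and 6 of 7 in the principal transcript. They begin 688, 454 and 326 bases after exon 5 in Pank3, Pank2 and Pank1, in introns of 1740, 5801 and 7282 bases. Mir33 (ENSMUSG00000065465.1) lies on chromosome 15 at 82198122 to 82198190, between exons 16 and 17 of 19 of Srebf2. It begins 335 bases after exon 16, in an intron of 1848 bases. No other miRNA gene lies within 10 kb of any of the 4. The host mRNAs were not measured in these small-RNA libraries.

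The libraries held 2388379 counts (replicate 1) and 4447390 counts (replicate 2) on the miRNA genes' own strands. Levels below are counts per 1000000 of these (CPM), and 3 counts, the limit that a count of 0 allows, are worth 1.26 and 0.675 CPM. Intervals are exact Clopper-Pearson intervals at 95%; like the limit above they reflect the error of counting alone, as no molecular identifiers mark reads that stem from 1 molecule. Reads with several genomic matches made up 48.6% and 52.8% of mapped reads and were assigned to no gene. The tissue label was checked on known markers: the neuronal Mir137 and Mir132 averaged 7215 ± 1199.9 and 49092 ± 15979.9 CPM (SD, n = 2), against 55.8 ± 2.51 CPM for the hepatocyte miRNA Mir122 and 17.8 ± 6.27 CPM for the muscle miRNA Mir206. The muscle genes Mir133b and Mir1a-1 had 0 assigned counts in both libraries, and Mir1a-2 had 1 in replicate 1 and 0 in replicate 2. The neuronal miR-124 copies, which have near-identical sequences, had at most 9 counts in a library.

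Mir107 had the most counts of the 4 genes among reads that could be assigned to a single gene. It had 10446 counts in replicate 1 and 11815 in replicate 2. These correspond to 4374 CPM (interval 4290 to 4458) and 2657 CPM (2609 to 2705), with a mean of 3515 ± 1214 CPM (SD, n = 2). It ranked 43rd and 59th among all genes of the files, and exceeded 89.0% and 84.9% of the 392 genes that reached 10 counts in both libraries, which are called measured. Its level was lower in replicate 2, and the intervals of the libraries do not overlap. Because reads of the 3p arm shorter than 22 bases match the other family genes too, this count leaves such reads out, and its CPM is uncertain in both directions. Whether reads of miR-103-3p with a changed base 22 were counted for Mir107 was not tested. In whole tissue, fewer cells of a type and less RNA per cell cannot be told apart.

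Mir103-2 had 95 counts in replicate 1 and 126 in replicate 2. Its levels were 39.8 CPM (interval 32.2 to 48.6) and 28.3 CPM (23.6 to 33.7), with a mean of 34.1 ± 8.09 CPM. The intervals overlap, with the lower value again in replicate 2. Mir103-1 was the scarcest of the family, with 28 and 25 counts. It stood at 11.7 CPM (7.79 to 16.9) and 5.62 CPM (3.64 to 8.30), a mean of 8.67 ± 4.31 CPM. Both copies were above the detection limit in both libraries. Neither number is a measure of miR-103-3p, since no full-length read of that arm can be given to one of these genes.

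Mir33, whose sequence is held by no other hairpin, had 58 counts in replicate 1 and 142 in replicate 2. Its levels were 24.3 CPM (interval 18.4 to 31.4) and 31.9 CPM (26.9 to 37.6), with a mean of 28.1 ± 5.41 CPM. The intervals overlap, and the higher value was in replicate 2. It exceeded 31.6% and 33.4% of the measured genes, so the cholesterol-linked miRNA stood above the limit of 3 counts in both cortices, in the lower part of the measured range. Some markers of other tissues reached similar or higher levels. Mir122 stood at 54.0 and 57.6 CPM and the islet and pituitary miRNA Mir375 at 86.7 and 103 CPM. Both were above Mir33, Mir103-2 and Mir103-1. The muscle miRNA Mir206, at 13.4 and 22.3 CPM, was below Mir33 and Mir103-2 and above Mir103-1. The muscle genes Mir133b, Mir1a-1 and Mir1a-2, with at most 1 assigned count in a library, were below all 4 genes. The SD was 19.2% of the mean, the smallest of the 4, against 23.8% for Mir103-2, 34.5% for Mir107 and 49.8% for Mir103-1. All 4 genes passed the minimum of 10 counts in both libraries.

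**Figure D2:**
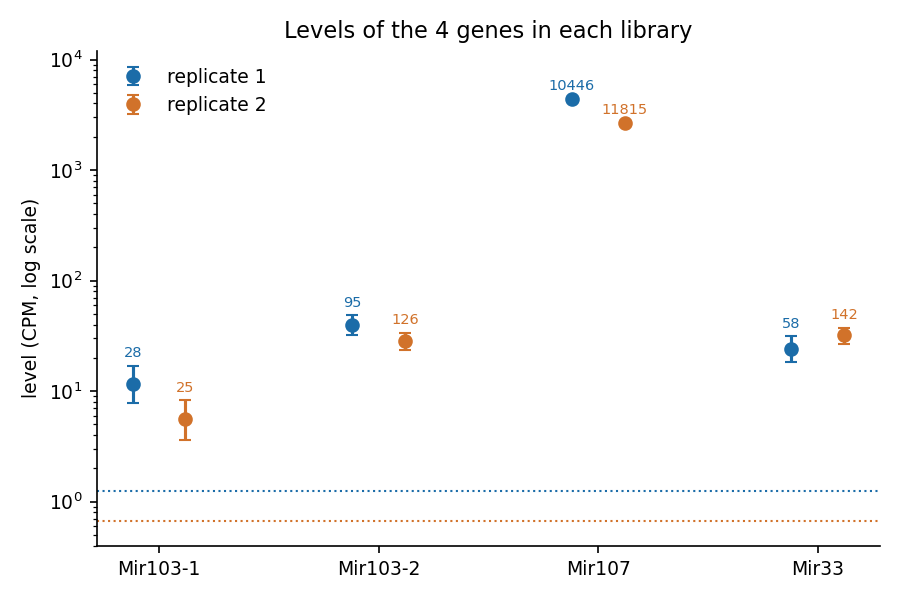
Level of each gene (CPM, log axis) in each library, with the 95% exact interval as a bar and the raw count above each point; dotted lines mark 3 counts in the library of the same colour. Mir107 stands between 2657 and 4374 CPM, while the other 3 genes stay between 5.62 and 39.8 CPM.

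Within the family the counts were uneven. Mir107 had 110.0 times the counts of Mir103-2 in replicate 1 (interval 89.9 to 136) and 93.8 times in replicate 2 (78.7 to 113), ratios whose intervals overlap. Against Mir103-1 it had 373 times (258 to 562) and 473 times (320 to 731). Mir103-2 had 3.39 times the counts of Mir103-1 in replicate 1 (2.21 to 5.37) and 5.04 times in replicate 2 (3.26 to 8.08). Mir107 supplied 98.8% and 98.7% of the counts of the 3 Pank introns. Full-length reads of miR-103-3p can be assigned to neither copy of Mir103, whereas those of miR-107-3p can be assigned to Mir107. These ratios and shares are therefore of assigned reads and not of the mature miRNAs. How large a part shared sequence has in them was not tested.

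By assigned counts the order of the 4 genes was Mir107, then Mir103-2 and Mir33, then Mir103-1, and the middle pair did not keep a fixed order. Mir103-2 had 1.64 times the counts of Mir33 in replicate 1 (1.17 to 2.31) and 0.887 times in replicate 2 (0.692 to 1.14). A read of these libraries spans about 1 mature miRNA, so CPM was not divided by gene length. Per base of hairpin (86 bases for both copies of Mir103, 87 for Mir107 and 69 for Mir33), mean levels were 0.101 CPM for Mir103-1, 0.396 for Mir103-2, 40.4 for Mir107 and 0.407 for Mir33, which exchanges the middle pair. Mir33 exceeded Mir103-1 by 2.07-fold (1.30 to 3.38) in replicate 1 and by 5.68-fold (3.69 to 9.07) in replicate 2. The ratio of Mir107 to Mir33 was 180 (139 to 237) in replicate 1 and 83.2 (70.5 to 98.9) in replicate 2, with intervals that do not overlap. Together the 4 genes held 0.445% of all counts in replicate 1 (0.437 to 0.453%) and 0.272% in replicate 2 (0.267 to 0.277%).

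The 3 Pank-intron genes were lower in replicate 2 than in replicate 1, and Mir33 was not called different. The log2 ratio (replicate 2 over replicate 1) was −0.72 for Mir107 (counting SE 0.019; interval −0.76 to −0.68), which is a 1.65-fold higher level in replicate 1. It was −0.49 for Mir103-2 (SE 0.196; −0.89 to −0.09) and −1.06 for Mir103-1 (SE 0.397; −1.90 to −0.23). Adjusted p was 2.39e-294, 0.0242 and 0.0166 in an exact binomial test conditional on the totals, two-sided and adjusted by Benjamini-Hochberg over all 392 measured genes. For Mir33 the log2 ratio was 0.39 (SE 0.225; −0.06 to 0.86), with an adjusted p of 0.138 in the same exact test, which does not show that the libraries have equal levels.

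These calls have to be read against the background. In the same test 56.9% of measured genes passed (22.7% of measured genes lower and 34.2% higher in replicate 2), so a call alone does not set a gene apart. The 3 called members were all lower, the direction with the smaller share, and whether that is unusual was not tested. The test compares these libraries and not conditions, and mouse and library cannot be told apart with 1 library per mouse. When edgeR's exact test allowed for the dispersion between the libraries (biological coefficient of variation 0.311), 0.765% of measured genes passed, 3 in number, and 19 had an unadjusted p under 0.05. None of the 4 genes passed it, with unadjusted p of 0.266 for Mir107, 0.482 for Mir103-2, 0.183 for Mir103-1 and 0.575 for Mir33 in that exact test. Its dispersion was estimated from the same pair of libraries and so contains the difference under test, and failing to pass it says little about any single gene. The median log2 ratio of measured genes was 0.06. Of measured genes, 7.91% had a lower log2 ratio than Mir107, 13.5% than Mir103-2 and 2.55% than Mir103-1, whereas 73.7% lay below Mir33.

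**Figure D3:**
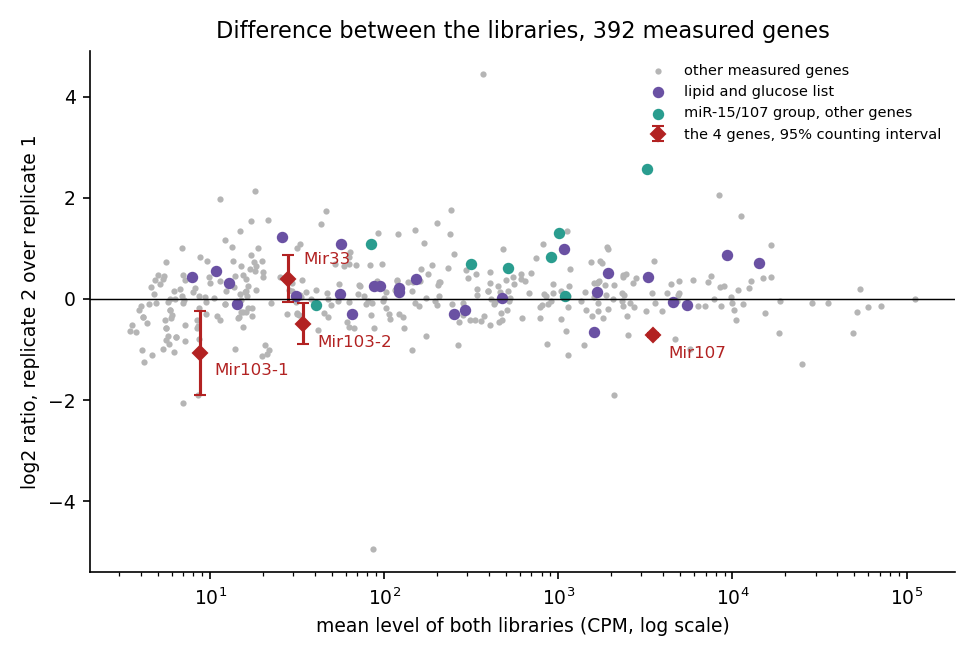
Log2 ratio of replicate 2 over replicate 1 against the mean level (CPM, log axis) for 392 measured genes, with 95% counting intervals for Mir103-1, Mir103-2, Mir107 and Mir33. Mir107 lies at −0.72 with an interval narrower than its marker, and the interval of Mir33 crosses 0.

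The family of miR-103 and miR-107 belongs to the wider miR-15 and miR-107 group, whose arms carry the letters AGCAGC near the 5′ end. The group includes miR-15, miR-16 and miR-195, which restrain cell-cycle genes. The 4 most abundant of its other genes are shown with AGCAGC in capitals, to set them beside the miR-107 arm.
mmu-miR-107-3p: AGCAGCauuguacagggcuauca
mmu-miR-195a-5p: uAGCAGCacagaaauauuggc
mmu-miR-322-5p: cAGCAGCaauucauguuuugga
mmu-miR-15a-5p: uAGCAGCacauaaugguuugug
mmu-miR-497a-5p: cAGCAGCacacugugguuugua
The letters fill bases 1 to 6 of miR-107-3p and bases 2 to 7 of the others, so the seeds of the family and of the rest of the group are offset by 1 base.

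Among assigned reads, Mir107 had the most counts of the 11 genes of the group in replicate 1 and the second most in replicate 2, where Mir195a exceeded it. Mir195a, transcribed with Mir497 from a common locus, had 2202 counts (922 CPM) in replicate 1 and 24534 counts (5516 CPM) in replicate 2. Mir322 was at 1088 ± 31.8 CPM, Mir15a at 1013 ± 606 CPM and Mir497 at 905 ± 360 CPM (SD, n = 2). Mir103-2 and Mir103-1 ranked 10th and 11th of the 11 in both libraries, a place that leaves out the reads of their common 3p arm, which can be counted for neither gene. Mir107 supplied 52.1% of the group's assigned counts in replicate 1 and 20.3% in replicate 2. Mir16-1 and Mir16-2 also have a common arm, miR-16-5p, whose full-length reads can be counted for neither gene. The ranks and shares of Mir107 are thus of assigned reads and not of the group's mature miRNAs.

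None of the other 8 genes of the group was called lower in replicate 2. All 8 were measured and 6 passed the exact binomial test, 6 higher and 0 lower in replicate 2, against 34.2% and 22.7% of all measured genes. Their median log2 ratio was 0.77, against 0.06 over all measured genes. Mir195a was 5.98-fold higher, Mir15a 2.47-fold and Mir16-2 2.11-fold, each past the threshold. Mir497, from the locus of Mir195a, differed less, with 651 CPM in replicate 1 and 1160 CPM in replicate 2 (1.78-fold). Mir322 and Mir503, which lie together on the X chromosome, had log2 ratios of 0.06 and −0.11 and did not pass. Mir16-1 and Mir16-2 encode the same 5p arm, so their counts are limited in the way described for the copies of Mir103. With edgeR's exact test 1 of the 8 passed.

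**Figure D4:**
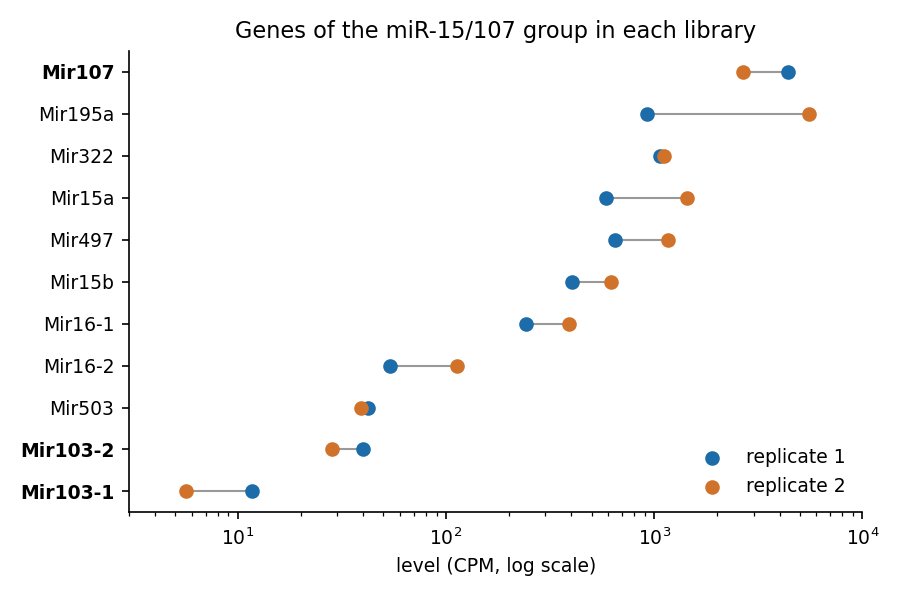
Levels (CPM, log axis) of the 11 genes of the miR-15 and miR-107 group in each library, ordered by their mean, with the genes of Pank introns in bold and a line joining the libraries. The 3 bold genes have their higher value in replicate 1, and Mir195a has the widest gap, from 922 to 5516 CPM.

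Other miRNAs known to act on lipid and glucose metabolism were listed for comparison, 29 genes in all, of which 26 were measured. Mir302a, Mir802 and Mir96 fell short of 10 counts in a library. Of the 26, 14 passed the exact binomial test (53.8%, against 56.9% of all measured genes), 9 higher and 5 lower in replicate 2, with a median log2 ratio of 0.24. By assigned reads the list was led by Mir128-1, at 14204 ± 4811 CPM. Mir128-1 lies in an intron of R3hdm1 and has a near copy in Mir128-2. Its product, like miR-33, targets Abca1. The level given is of reads assigned to Mir128-1 alone and not of that mature miRNA. Mir29a followed at 9251 ± 3814 CPM, Mir143 at 5449 ± 299 CPM and Mir378a, a miRNA of the Ppargc1b intron, at 4550 ± 121 CPM (SD, n = 2). By mean level of assigned reads, 4 of the 29 exceeded Mir107 and 21 exceeded Mir33. Mir148a and Mir144, both known regulators of Abca1, were 2.11-fold and 2.35-fold higher in replicate 2, past the threshold of the binomial test. With edgeR's exact test 0 of the 26 passed, and the unadjusted p was 0.112 for Mir148a and 0.0830 for Mir144. Mir370, which is known to act on lipid metabolism in liver, was 1 of the 5 list genes called lower in replicate 2 by the binomial test, with a log2 ratio of −0.65.

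Single genes with levels most like those of each member were found by the distance of log2(CPM + 1) over the 2 libraries. For Mir107 these were Mir181b-2 (3416 and 2915 CPM) and Mir98 (4280 and 3634 CPM), at distances of 0.381 and 0.453; Mir181b-2 is itself 1 of several like copies. For Mir103-2 they were Mir6516 (97 and 126 counts) and Mir3057 (86 and 129 counts), at 0.029 and 0.144. For Mir103-1 they were Mir190b (26 and 28 counts) and Mir1231 (24 and 30 counts), at 0.171 and 0.304. For Mir33 they were Mir467c (63 and 146 counts) and Mir6769b (63 and 133 counts), at 0.121 and 0.147. With 2 libraries such closeness describes levels alone.

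No read was counted on the strand opposite to any of the 4 hairpins, in either library, which allows up to 1.26 CPM in the first and 0.675 CPM in the second. Searched over the spliced GENCODE transcripts on both strands, every whole arm was found in its own gene or, for miR-103-3p, in Mir103-1 and Mir103-2, and in no other transcript.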

How the data were processed

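Small RNAs of the left cerebral cortex were sequenced in 1 library for each of 2 mice. The authors deposited raw counts of reads per miRNA gene on mm10 with GENCODE M21, per the readme files; the aligner and counter are both not given in the sources used here. No header names the columns. The second of the 3 count columns was read as the gene's own strand from its values and was used throughout. Summary rows for reads outside genes were left out of totals; unmapped reads were 31.6% and 18.2% of all reads, and reads in no feature 7.36% and 6.91% of mapped reads. The reads come from a hybrid with CAST/EiJ and were aligned to mm10, which represents C57BL/6J, and mismatches at CAST/EiJ variants were not tested. Counts of the libraries differed beyond sampling noise (chi-square 176676 on 760 degrees of freedom), so both were kept.

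CPM was computed from own-strand totals. Genes that reached 10 counts in both libraries were tested by an exact conditional binomial test given the totals, with Benjamini-Hochberg adjustment at 0.05; edgeR 4.0.16 (R 4.3.3) gave TMM factors and an exact test, because its quasi-likelihood test has no contrast within 1 group, and DESeq2 1.42.0 gave size factors. Both tests were run on simulated counts with known fold changes. The counts for the binomial test held counting noise alone, and those for edgeR's test a spread set in advance. This checks the code and not whether either test suits these libraries. Sequences are RefSeq's (GRCm38.p6), found for all 4 genes at the positions of the annotation; matching was exact, against hairpins and transcripts and not a genome. The members and lists were chosen with earlier results of these data known. Named genes are the 4 members, the 4 most abundant genes of each list, list genes past the test with at least a 2-fold difference, the 2 genes nearest to each member in level, and tissue markers; Mir370, Mir503, Mir302a, Mir802 and Mir96 were named after their values were seen. Other steps ran in Python 3.11.15 with pandas 2.3.3, NumPy 2.4.6, SciPy 1.17.1 and, for figures, matplotlib 3.10.9.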

Additional observations from a re-analysis of the deposited data

How the results depend on the processing

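No paired analysis was possible because there is 1 group. With reads of several matches added to the total, mean levels moved to 4.00 CPM for Mir103-1, 15.6 CPM for Mir103-2, 1615 CPM for Mir107 and 12.7 CPM for Mir33, and the summed share of the 4 genes to 0.165%; the larger total alone does this. Leaving out a replicate gave 5.62 to 11.7, 28.3 to 39.8, 2657 to 4374 and 24.3 to 31.9 CPM, and 0.272 to 0.445% for the sum. With edgeR's exact test, log2 ratios stayed at −1.06, −0.49 and −0.72 for Mir103-1, Mir103-2 and Mir107 and were no longer called (adjusted p = 1 for each). Calls fell from 223 to 3 over all genes, to 1 in the miR-15 and miR-107 group and to 0 in the lipid and glucose list, since that test adds the dispersion between libraries to counting error. Under TMM, DESeq2 size factors, both strands together, totals without the most abundant gene, and a minimum of 1 count in either library, the calls of the 4 genes held, with log2 ratios from −1.13 to −1.04 for Mir103-1, −0.56 to −0.46 for Mir103-2, −0.79 to −0.69 for Mir107 and 0.33 to 0.42 for Mir33. At 100 counts in each library only Mir107 could be tested. Of the 8 genes named for likeness of level, 7 were also among the nearest 2 by rank. The 25 to 142 counts of Mir103-1, Mir103-2 and Mir33 limit their precision.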

Other observations

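Over the 1018 genes with RefSeq arms in the files, 40 had every arm whole in the hairpin of another gene, 55 had some arm so, among them Mir103-1 and Mir103-2, and 923 had none, among them Mir107 and Mir33. Measured were 20.0%, 69.1% and 33.5% of these classes. Median mean levels were 0, 31.5 and 0.740 CPM over all genes of these classes, and 217, 86.3 and 149 CPM over the measured ones, which number 8, 38 and 309 and stand in another order. Mir103-2, at 34.1 CPM, lay above the median of all genes of its class and below that of the measured ones, and Mir103-1, at 8.67 CPM, lay below both. Mir107 differs from Mir103-2 by 1 base in each arm, so neither of its arms lies whole in another hairpin.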
